A study of Mus musculus with 16 samples.

Results

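The transcripts of 10 genes whose enzymes carry fatty acids into mitochondria and oxidise them there are described in mouse white fat: Cpt1a, Cpt1b and Cpt2, the acyl-CoA dehydrogenase genes Acadvl, Acadl, Acadm and Acads, the trifunctional protein genes Hadha and Hadhb, and the thiolase gene Acaa2. The genes were taken by name. All 10 were in the deposited table of 14023 genes and all 10 were among the 13669 genes tested. The study measured RNA of whole epididymal fat (eWAT) and inguinal fat (iWAT) from mice homozygous for PPARg-K107R or wild type (WT) for it. The K107R allele puts arginine in place of a lysine of the nuclear receptor PPARg that can carry SUMO, a small protein tag. Every mouse ate chow for 10 weeks and then, for 19 weeks, a high-fat diet in which fat supplied 60% of calories. Rosiglitazone, a PPARg agonist, was then gavaged for 1 week at 10 mg/kg, and vehicle mice received the carrier, 1% methylcellulose. The 8 groups, each with 2 libraries numbered 1 and 2, are K107R rosiglitazone, WT rosiglitazone, K107R vehicle and WT vehicle in eWAT and the same in iWAT. No lean or chow-fed mice, and no mice without a gavage, are among them. The labels do not say whether the allele came with a strain background other than that of the WT mice, nor whether a group has 2 mice or 1 mouse behind its 2 libraries, so p-values measure a spread between libraries that may be technical.

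Mitochondrial beta-oxidation shortens a fatty acid step by step to acetyl-CoA. Carnitine palmitoyltransferase 1, of which Cpt1a encodes the form abundant in liver and Cpt1b the form abundant in muscle and brown fat, loads long-chain acyl groups onto carnitine at the outer membrane, and malonyl-CoA inhibits it. Cpt2 encodes the enzyme that returns the acyl group to CoA inside. Each round of oxidation starts with an acyl-CoA dehydrogenase chosen by chain length, continues on the trifunctional protein for long chains, and ends with a thiolase. White fat cells mainly store and release fatty acids, and PPAR family receptors are known to act on many genes of fat storage and oxidation.

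Values are FPKM (fragments scaled by transcript length and library size), so levels of different genes can be set side by side. Changes are differences of log2(FPKM + 1), a scale that understates changes of low genes, with the standard error (SE) of limma's moderated test. A gene was called at a Benjamini-Hochberg adjusted p under 0.05 over all genes tested in that comparison. Counts at an unadjusted p under 0.05 stand without the share of all genes at that threshold, which was not computed. The shares of all genes called are at the adjusted threshold and cannot be set against those counts. Replicate numbers were found to pair the libraries, so for the 10 genes the adjusted p with the number as a block is given beside the first wherever it alters a call, and for other lists the count of calls. Every ± is the SE of the fit without the block, also where an adjusted p with the block follows. The block left the changes of the 10 genes as they were and altered their SE. For the rosiglitazone change of Acaa2 in K107R eWAT the SE was 0.27 without the block and 0.09 with it.

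The number 2 libraries had a median of 5.36 to 7.92 FPKM over all genes, against 8.95 to 9.61 FPKM in the number 1 libraries, except that the number 2 library of eWAT K107R rosiglitazone was at 8.83 FPKM. That group was also the tightest, with a median absolute log2 difference of 0.14 between its 2 libraries over all genes, against 0.25 to 0.55 in the other groups. Over the 8 groups, number 1 minus number 2 averaged 1.08 for Cpt1b, 0.64 for Cpt1a and -0.38 for Acaa2 on the log2 scale, beside a median of 0.30 over all genes. In eWAT K107R rosiglitazone it was 0.05 for Cpt1b and -0.04 for Cpt1a, the lowest of the groups. Actb was at 1460 and 938 FPKM there, and at 2016 and 96.9 FPKM in eWAT K107R vehicle. The block takes 1 shift by number for all groups, which that group hardly showed for Cpt1b and Cpt1a. Its comparisons can keep part of that shift with or without the block, and how much was not tested. The eWAT K107R vehicle libraries carried epididymis markers, which summed to 2879 and 2776 FPKM there and to at most 4.49 FPKM in any other library. These libraries enter the rosiglitazone change in K107R eWAT, the genotype difference in vehicle eWAT and the comparison of those responses in eWAT. They also enter the difference between depots and the depot comparison of the K107R response. Their part in these was not tested. The 7 fat cell markers were above 1 FPKM in every group. Fewer cells of a type and less RNA per cell cannot be told apart in bulk tissue.

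On GRCm38, Cpt1a lies on chromosome 19 from 3322334 to 3385733 (plus strand), Cpt1b on chromosome 15 from 89416405 to 89425863 (minus) and Cpt2 on chromosome 4 from 107903981 to 107923610 (minus). Acadvl lies on chromosome 11 from 70010183 to 70015411 (minus), Acadl on chromosome 1 from 66830839 to 66863277 (minus), Acadm on chromosome 3 from 153922357 to 153944632 (minus) and Acads on chromosome 5 from 115110299 to 115119346 (minus). Acaa2 lies on chromosome 18 from 74779197 to 74806208 (plus). All are protein-coding genes, and their values count reads over whole genes.

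Acadm was the most abundant of the 10 transcripts in 7 of the 8 groups and second to Hadhb in eWAT K107R rosiglitazone. Over the 16 libraries Acadm ran between 172 and 699 FPKM with a median of 339 FPKM. Hadhb ranked between 1 and 4, Acadl between 2 and 4, Acaa2 between 2 and 5, Hadha between 4 and 7, and Acads and Acadvl between 5 and 7. Cpt1a and Cpt2 took ranks 8 and 9 in every group, and Cpt1b was always the lowest. The order of neighbours is firm in part: in eWAT WT vehicle the libraries of Acadm, Hadhb and Acadl did not overlap in this descending order, whereas those of Acaa2 and Hadha overlapped, as did those of Acadvl with Acads and of Acads with Cpt1a. In iWAT WT vehicle, Acadl overlapped with Hadhb, Acaa2 with Acads and Acadvl with Hadha. The 10 transcripts together summed to 1919 and 1977 FPKM in eWAT K107R rosiglitazone, 1371 and 1486 FPKM in eWAT WT rosiglitazone, 1009 and 989 FPKM in eWAT K107R vehicle, and 962 and 1037 FPKM in eWAT WT vehicle. In iWAT these sums were 2731 and 2582 FPKM in K107R rosiglitazone, 2444 and 2523 FPKM in WT rosiglitazone, 1322 and 1147 FPKM in K107R vehicle, and 1347 and 1285 FPKM in WT vehicle. Rosiglitazone libraries lay above vehicle libraries of their genotype in both depots, and the K107R rosiglitazone libraries lay above the WT ones in both depots.

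**Figure D1:**
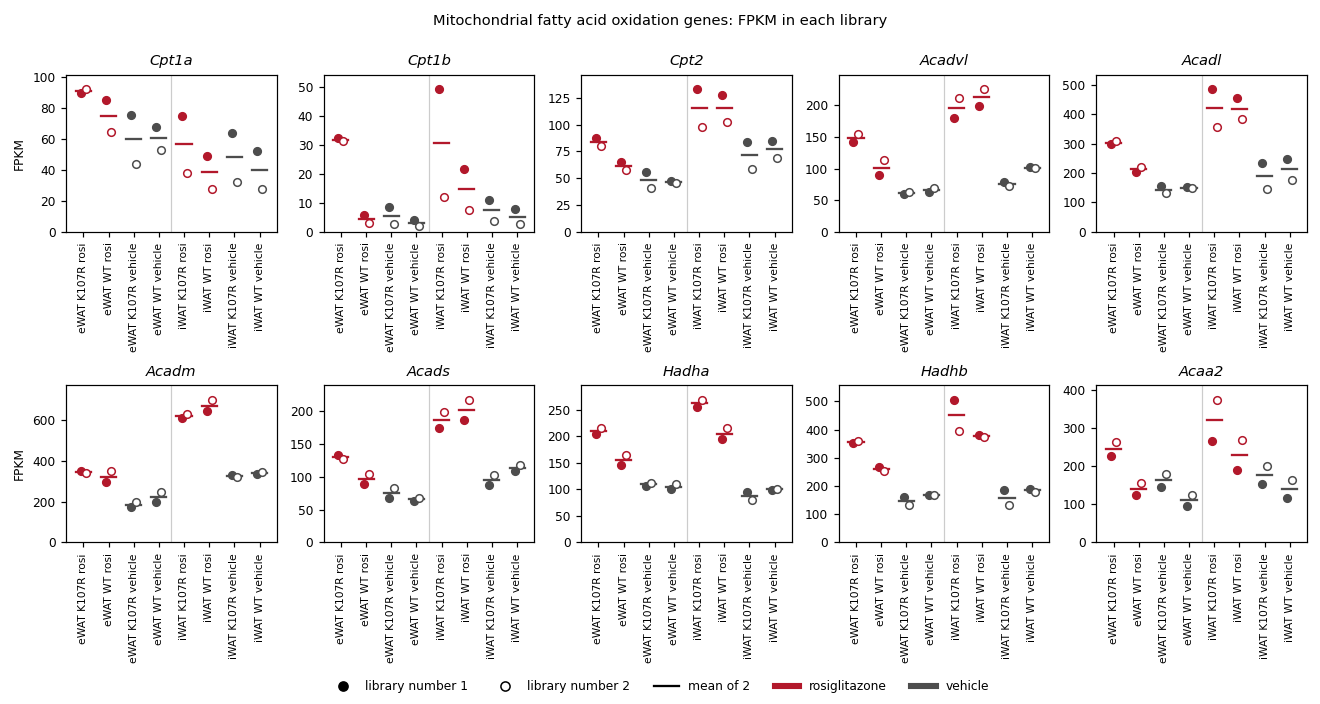
FPKM (linear axis from 0) of the 10 genes in each of the 16 libraries, with filled points for library number 1, open points for number 2, a line at the mean of 2, red for rosiglitazone and grey for vehicle, eWAT left of the grey divider and iWAT right of it. Acadvl sits at 142 and 155 FPKM in eWAT K107R rosiglitazone, above every other eWAT library, while Cpt1a shows wide gaps between the libraries of most groups.

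With rosiglitazone, genes of all 4 dehydrogenases and of both trifunctional protein subunits rose in K107R fat of both depots, and most of them in WT iWAT. Cpt1a was called in none of these comparisons. In K107R eWAT 6 of the 10 rose, Acadvl, Acadl, Acadm, Acads, Hadha and Hadhb, in a comparison in which 1.29% of all genes tested were called higher. Its vehicle side is the 2 libraries that carried epididymis markers, and their part in these changes was not tested. The same 6 rose in K107R iWAT, against 1.92% of all genes. In WT iWAT 5 rose, all of these but Acadl, against 0.9% of all genes. In WT eWAT limma called none of the 10, and 0.168% of all genes. Unadjusted p was under 0.05 for 5 members there. No member was called lower in any of the 4 comparisons.

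Pairing the libraries by number increased these counts. With the block, 9 of the 10 were called higher in K107R eWAT and 5.05% of all genes, 5 in WT eWAT and 1.02%, 9 in K107R iWAT and 6.61%, and 8 in WT iWAT and 4.02%. The 5 in WT eWAT were Acadm, Acads, Acadvl, Hadha and Hadhb. Both rosiglitazone libraries lay above both vehicle libraries for 10 members in K107R eWAT, as for 23.8% of all genes. The same held for 8 members and 15.5% of all genes in WT eWAT, for 9 members and 13.8% in K107R iWAT, and for 8 members and 14.5% in WT iWAT. The median log2 change of the 10 was 0.92 in K107R eWAT, 0.52 in WT eWAT, 1.07 in K107R iWAT and 0.98 in WT iWAT. Over all genes tested the medians were 0.17 in K107R eWAT and 0.03 in WT eWAT, and scaling libraries by their median ratios moved the first to -0.01, with a members' median of 0.68. After scaling 4 of the 10 were called in K107R eWAT, Acadl and Hadhb of the 6 above and Cpt1b and Cpt2, while Acadm, Acads, Acadvl and Hadha lost the call. In K107R iWAT 4 were called after it, Acadl, Hadha, Hadhb and Cpt2, and in WT iWAT 2, Hadhb and Acadl. All fits after scaling were run without the block. In each group the number 2 library had the lower scale factor, so scaling also shifts the gap between numbers. The fit without the block counts that gap as spread. Calls after scaling with the block were not computed, so a lost call need not mean a smaller change. Each count rests on few libraries: 3 members were called in K107R eWAT without the number 1 library of its vehicle group. In WT iWAT 1 was called without either vehicle library or without the number 2 rosiglitazone library, and 2 without the number 1 rosiglitazone library.

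**Figure D2:**
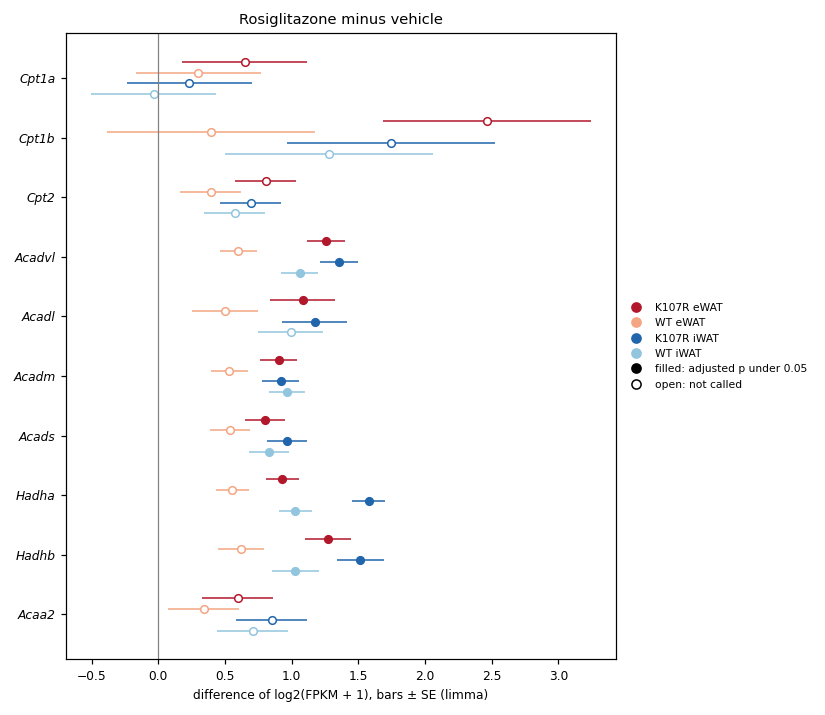
Difference of log2(FPKM + 1), rosiglitazone minus vehicle, for the 10 genes (rows) with bars of 1 SE either side, in K107R eWAT, WT eWAT, K107R iWAT and WT iWAT from top to bottom within a row. Filled points passed an adjusted p under 0.05, and Hadha in K107R iWAT reaches 1.58 while the WT eWAT points are all open.

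Entry of long chains begins with carnitine palmitoyltransferase 1. Cpt1a was at 89.3 and 92.02 FPKM in eWAT K107R rosiglitazone, 85.2 and 64.0 FPKM in WT rosiglitazone, 75.5 and 43.8 FPKM in K107R vehicle and 67.7 and 52.8 FPKM in WT vehicle. The number 1 and number 2 libraries were far apart in 3 of these groups, and only the K107R rosiglitazone pair lay above both libraries of its vehicle group. In iWAT Cpt1a was at 74.6 and 38.1 FPKM in K107R rosiglitazone, 49.1 and 27.8 FPKM in WT rosiglitazone, 63.8 and 32.1 FPKM in K107R vehicle and 52.1 and 27.5 FPKM in WT vehicle. There the number 1 libraries exceeded the number 2 libraries in all 4 groups, and the groups overlapped. The rosiglitazone change of Cpt1a was 0.65 ± 0.47 (adjusted p = 0.866) in K107R eWAT, 0.30 ± 0.47 (adjusted p = 1) in WT eWAT, 0.23 ± 0.47 (adjusted p = 1) in K107R iWAT and -0.03 ± 0.47 (adjusted p = 1) in WT iWAT, and none passed with the block.

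Cpt1b, the muscle and brown fat form, had 32.3 and 31.3 FPKM in eWAT K107R rosiglitazone, 5.63 and 3.12 FPKM in WT rosiglitazone, 8.44 and 2.74 FPKM in K107R vehicle and 4.09 and 2.11 FPKM in WT vehicle. In FPKM, both K107R rosiglitazone libraries stood above all 6 others of eWAT by more than those 6 differed among themselves, which does not hold for ratios of FPKM. In iWAT it had 49.3 and 12.02 FPKM in K107R rosiglitazone, 21.7 and 7.60 FPKM in WT rosiglitazone, 11.1 and 3.83 FPKM in K107R vehicle and 7.74 and 2.77 FPKM in WT vehicle. Here each number 1 library far exceeded its number 2 partner, and the lowest K107R rosiglitazone library was just above the highest K107R vehicle library. The rosiglitazone change was 2.46 ± 0.78 (adjusted p = 0.153, and 0.00138 with the block) in K107R eWAT, where the adjusted p was 0.0359 after scaling. Treated over vehicle FPKM in K107R eWAT was 3.83 within number 1 and 11.4 within number 2. The rosiglitazone change was 1.75 ± 0.78 (adjusted p = 0.400, and 0.0110 with the block) in K107R iWAT. Neither WT depot passed with or without the block, with 0.39 ± 0.78 (adjusted p = 1) in eWAT and 1.28 ± 0.78 (adjusted p = 0.907) in iWAT. Cpt1b starts 496 bases past the end of Chkb, a choline kinase gene on the same strand, and transcripts that run across could be counted for either. Chkb had 35.7 and 35.9 FPKM in eWAT K107R rosiglitazone and 30.0 and 21.0 FPKM in K107R vehicle, a change of 0.50 ± 0.35 (adjusted p = 0.866).

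Cpt2, which rebuilds acyl-CoA inside the inner membrane, was at 88.0 and 80.3 FPKM in eWAT K107R rosiglitazone, 65.4 and 57.8 FPKM in WT rosiglitazone, 56.0 and 40.6 FPKM in K107R vehicle and 47.4 and 45.8 FPKM in WT vehicle. Rosiglitazone libraries were above the vehicle libraries of their genotype. In iWAT Cpt2 was at 133 and 97.9 FPKM in K107R rosiglitazone, 128 and 103 FPKM in WT rosiglitazone, 83.5 and 59.0 FPKM in K107R vehicle and 85.2 and 69.2 FPKM in WT vehicle. Again the 2 treatments did not overlap within a genotype. The change passed with the block and not without it in 3 settings, with 0.80 ± 0.23 (adjusted p = 0.0991, and 0.00173 with the block) in K107R eWAT, 0.69 ± 0.23 (adjusted p = 0.171, and 0.00463 with the block) in K107R iWAT and 0.57 ± 0.23 (adjusted p = 0.461, and 0.0206 with the block) in WT iWAT. After scaling, without the block, adjusted p was 0.0261 in K107R eWAT, 0.0183 in K107R iWAT and 0.0727 in WT iWAT. In WT eWAT the change was 0.39 ± 0.23 (adjusted p = 1, and 0.172 with the block).

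Acadvl encodes the very-long-chain dehydrogenase, which sits at the inner membrane. It had 142 and 155 FPKM in eWAT K107R rosiglitazone, 90.2 and 113 FPKM in WT rosiglitazone, 59.6 and 63.7 FPKM in K107R vehicle and 63.4 and 69.0 FPKM in WT vehicle. The 3 levels of K107R rosiglitazone, WT rosiglitazone and both vehicle groups were separate from one another. In iWAT it had 180 and 212 FPKM in K107R rosiglitazone, 199 and 226 FPKM in WT rosiglitazone, 78.8 and 72.7 FPKM in K107R vehicle and 102 and 101 FPKM in WT vehicle. Treated libraries again did not overlap with vehicle libraries, while K107R and WT overlapped under the drug. Acadvl rose by 1.26 ± 0.14 (adjusted p = 0.000250) in K107R eWAT, 1.36 ± 0.14 (adjusted p = 0.000544) in K107R iWAT and 1.06 ± 0.14 (adjusted p = 0.00614) in WT iWAT, and its change in WT eWAT was 0.60 ± 0.14 (adjusted p = 0.152, and 0.0178 with the block). Scaling the libraries ended all 3 calls, with changes of 1.03 (adjusted p = 0.174), 1.29 (adjusted p = 0.0694) and 1.02 (adjusted p = 0.240) in the same order.

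Long-chain substrates in mice are also taken by the enzyme of Acadl. Its transcript was at 297 and 309 FPKM in eWAT K107R rosiglitazone, 205 and 222 FPKM in WT rosiglitazone, 156 and 131 FPKM in K107R vehicle and 151 and 150.1 FPKM in WT vehicle. In iWAT it was at 486 and 357 FPKM in K107R rosiglitazone, 454 and 382 FPKM in WT rosiglitazone, 233 and 146 FPKM in K107R vehicle and 248 and 176 FPKM in WT vehicle. Within each genotype and depot no treated library overlapped with a vehicle one, and in iWAT the number 1 library exceeded the number 2 library in every group. The rise was 1.08 ± 0.25 (adjusted p = 0.0306) in K107R eWAT and 1.17 ± 0.25 (adjusted p = 0.0251) in K107R iWAT. After scaling both calls held. Leaving out any 1 of the 4 libraries of the K107R eWAT comparison lost the call, with adjusted p between 0.127 and 0.341. In WT iWAT the change was 0.99 ± 0.25 (adjusted p = 0.0967, and 0.0112 with the block), with an adjusted p of 0.0120 after scaling, and in WT eWAT 0.50 ± 0.25 (adjusted p = 1, and 0.296 with the block).

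The medium-chain dehydrogenase gene Acadm had 351 and 341 FPKM in eWAT K107R rosiglitazone, 295 and 349.6 FPKM in WT rosiglitazone, 172 and 199 FPKM in K107R vehicle and 199.7 and 246 FPKM in WT vehicle. The genotypes overlapped under rosiglitazone and not under vehicle, where the difference, K107R minus WT, was -0.26 ± 0.14 (adjusted p = 0.742). In iWAT it had 607 and 628 FPKM in K107R rosiglitazone, 641 and 699 FPKM in WT rosiglitazone, 332 and 320.2 FPKM in K107R vehicle and 337 and 347 FPKM in WT vehicle, so that each treated library was well above all 4 vehicle libraries. Acadm rose by 0.90 ± 0.14 (adjusted p = 0.00248) in K107R eWAT, 0.92 ± 0.14 (adjusted p = 0.00447) in K107R iWAT and 0.97 ± 0.14 (adjusted p = 0.00825) in WT iWAT. Its change in WT eWAT was 0.53 ± 0.14 (adjusted p = 0.224, and 0.0290 with the block). None of the 3 calls held after scaling without the block. The change was then 0.67 (adjusted p = 0.558) in K107R eWAT, 0.85 (adjusted p = 0.282) in K107R iWAT and 0.92 (adjusted p = 0.330) in WT iWAT.

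Acads, the short-chain dehydrogenase gene, was at 134 and 128 FPKM in eWAT K107R rosiglitazone, 88.4 and 104 FPKM in WT rosiglitazone, 67.8 and 82.4 FPKM in K107R vehicle and 63.8 and 67.8 FPKM in WT vehicle. In iWAT it was at 174 and 199 FPKM in K107R rosiglitazone, 187 and 218 FPKM in WT rosiglitazone, 87.6 and 102 FPKM in K107R vehicle and 109 and 118 FPKM in WT vehicle. Rosiglitazone and vehicle libraries were apart in each genotype and depot. The rise was 0.80 ± 0.15 (adjusted p = 0.00982) in K107R eWAT, 0.97 ± 0.15 (adjusted p = 0.00513) in K107R iWAT and 0.83 ± 0.15 (adjusted p = 0.0239) in WT iWAT, and the change in WT eWAT was 0.54 ± 0.15 (adjusted p = 0.293, and 0.0179 with the block). The call in K107R eWAT was lost without any 1 of 3 of its 4 libraries, with adjusted p between 0.0572 and 0.147. Scaling the libraries gave adjusted p of 0.783, 0.319 and 0.593 for the first 3.

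Hadha and Hadhb encode the alpha and beta subunits of the trifunctional protein, which hydrates, oxidises and cleaves long-chain intermediates. Hadha was at 205 and 216 FPKM in eWAT K107R rosiglitazone, 146 and 164 FPKM in WT rosiglitazone, 106.8 and 113 FPKM in K107R vehicle and 101 and 109.5 FPKM in WT vehicle. In iWAT it was at 255 and 269 FPKM in K107R rosiglitazone, 194 and 216 FPKM in WT rosiglitazone, 95.1 and 79.4 FPKM in K107R vehicle and 99.0 and 101 FPKM in WT vehicle. Its 2 libraries differed by between -0.17 and 0.26 on the log2 scale in the 8 groups, and under rosiglitazone the K107R libraries were above the WT libraries in both depots. Hadha rose by 0.93 ± 0.12 (adjusted p = 0.000942) in K107R eWAT, 1.58 ± 0.12 (adjusted p = 0.000111) in K107R iWAT and 1.03 ± 0.12 (adjusted p = 0.00362) in WT iWAT, and its change in WT eWAT was 0.55 ± 0.12 (adjusted p = 0.124, and 0.0253 with the block). Scaling ended the calls in K107R eWAT (adjusted p = 0.393) and WT iWAT (adjusted p = 0.191) and not that in K107R iWAT (adjusted p = 0.0191).

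Hadhb had 353 and 361 FPKM in eWAT K107R rosiglitazone, 266 and 254 FPKM in WT rosiglitazone, 163 and 133 FPKM in K107R vehicle and 169 and 169 FPKM in WT vehicle. In iWAT it had 506 and 395 FPKM in K107R rosiglitazone, 380.2 and 375 FPKM in WT rosiglitazone, 184 and 132 FPKM in K107R vehicle and 189.8 and 179.8 FPKM in WT vehicle. As for Hadha, no treated library overlapped with a vehicle library, and K107R was above WT under rosiglitazone. The rise of Hadhb was 1.27 ± 0.17 (adjusted p = 0.00115) in K107R eWAT, 1.52 ± 0.17 (adjusted p = 0.00101) in K107R iWAT and 1.03 ± 0.17 (adjusted p = 0.0183) in WT iWAT, with 0.62 ± 0.17 (adjusted p = 0.311, and 0.0435 with the block) in WT eWAT. The 3 calls of Hadhb held after scaling.

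The 2 subunit genes lie head to head on chromosome 5 of GRCm38, Hadha from 30118304 to 30155162 on the minus strand and Hadhb from 30155248 to 30184593 on the plus strand. Between their outermost annotated starts lie 85 bases, shown here as the stretch that separates the 2 genes. This stretch does not reach the start at 30154980 that the promoter window of Hadha is built on, and 68 of its bases are in that window. It is printed 5′ to 3′ on the strand of Hadhb, from the RefSeq promoter table on GRCm38.p6, at chr5:30155163-30155247, with no capitals because it held none of the motifs searched:
Hadha-Hadhb interval: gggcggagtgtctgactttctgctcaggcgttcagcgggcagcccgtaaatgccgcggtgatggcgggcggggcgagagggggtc

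Motifs were searched on both strands of the 300-base RefSeq promoter windows, from 250 bases before the start to 50 after it, which the table holds for 8 of the 10 genes. The hexamer AGGTCA, the core that PPAR and related nuclear receptors are known to bind, was in the windows of 3 of the 8, Acadm, Acadvl and Cpt1a, and in 16.3% of the 32851 promoters in the table. The layout of a PPAR element, AGGNCA, 1 base of any kind and AGGNCA, was in none of the 8 and in 0.381% of all promoters. The longer TNAAGGTCA, which contains the hexamer, was in none and in 1.28%. The members' windows were 50.7% to 70.3% G and C with 9 to 34 CpG pairs, against medians of 52.7% and 7 over all promoters. The stretches of the 3 windows before the start that hold no annotated exon are printed 5′ to 3′ on the gene's strand, with that hexamer in capitals, TGACCT where it lies on the opposite strand, so that its place can be compared: 249 bases before the start in Acadm, 87 in Acadvl and 94 in Cpt1a. They lie at chr3:153944644-153944893 (minus strand), chr11:70015429-70015678 (minus strand) and chr19:3323051-3323284 (plus strand, within the annotated span of Cpt1a, which starts at 3322334). The stretch of Cpt1a stops short of the start that the window is built on, at 3323301, so its last base is not next to that start.
Acadm: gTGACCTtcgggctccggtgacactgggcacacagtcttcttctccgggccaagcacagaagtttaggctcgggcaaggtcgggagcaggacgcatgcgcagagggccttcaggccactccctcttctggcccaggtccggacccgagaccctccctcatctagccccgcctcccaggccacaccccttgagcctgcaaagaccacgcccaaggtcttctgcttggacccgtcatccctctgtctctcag
Acadvl: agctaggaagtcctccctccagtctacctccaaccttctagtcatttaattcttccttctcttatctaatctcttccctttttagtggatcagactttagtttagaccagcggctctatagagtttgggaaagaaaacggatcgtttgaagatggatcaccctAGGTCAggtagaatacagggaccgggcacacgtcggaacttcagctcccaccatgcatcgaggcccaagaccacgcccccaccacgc
Cpt1a: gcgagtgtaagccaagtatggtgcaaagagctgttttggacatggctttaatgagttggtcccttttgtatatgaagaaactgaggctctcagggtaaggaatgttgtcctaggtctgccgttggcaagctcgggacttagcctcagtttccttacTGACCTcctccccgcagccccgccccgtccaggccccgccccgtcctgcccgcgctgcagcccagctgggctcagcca

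Of these 3 genes, Acadm and Acadvl rose with rosiglitazone in 3 of 4 comparisons, or 4 of 4 with the block, and Cpt1a in none. Without the hexamer in their windows, Acads, Hadha and Hadhb also rose in 3 of 4 comparisons, or 4 of 4 with the block. Acadl, likewise without it, rose in 2 of 4, or 3 of 4 with the block. Cpt2, whose window also lacks the hexamer, rose in none, or 3 of 4 with the block.

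Acaa2 encodes the thiolase that splits off acetyl-CoA from medium-chain intermediates. It was at 227 and 264 FPKM in eWAT K107R rosiglitazone, 125 and 155 FPKM in WT rosiglitazone, 145 and 181 FPKM in K107R vehicle and 96.2 and 125 FPKM in WT vehicle. In iWAT it was at 266 and 375 FPKM in K107R rosiglitazone, 191 and 269.6 FPKM in WT rosiglitazone, 153 and 199.7 FPKM in K107R vehicle and 117 and 164 FPKM in WT vehicle. The number 2 library exceeded the number 1 library in all 8 groups, which the fit without the block counts as spread. The rosiglitazone change was 0.59 ± 0.27 (adjusted p = 0.463, and 0.00200 with the block) in K107R eWAT, 0.85 ± 0.27 (adjusted p = 0.143, and 0.000313 with the block) in K107R iWAT and 0.71 ± 0.27 (adjusted p = 0.395, and 0.00183 with the block) in WT iWAT, and in WT eWAT it was 0.34 ± 0.27 (adjusted p = 1, and 0.107 with the block).

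K107R was set against WT in each treatment to see how the mutation bears on the oxidation genes. Under rosiglitazone in eWAT all 10 members were higher in K107R in their means, by 1.08 to 7.26 times, with a median log2 difference of 0.45. The median over all genes was 0.009 there. limma called none of the 10, with 0.907% of all genes called in either direction. Unadjusted p was under 0.05 for 6, with no share of all genes at that threshold to set beside it. With the block 4 were called, Acads, Acadvl, Acaa2 and Cpt1b, and 3.47% of all genes. After scaling, without the block, no member was called, and the lowest adjusted p was 0.0577, for Cpt1b. Both K107R libraries were above both WT libraries for 9 of the 10, all but Acadm, as for 17.6% of all genes. The vehicle libraries that carried epididymis markers do not enter these differences. Of 3 erythrocyte markers 1 was lower in K107R in the same comparison, or 2 with the block, with sums of 279 and 266 FPKM in K107R and 525 and 560 FPKM in WT, and their part was not tested.

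Under rosiglitazone in eWAT the difference, K107R minus WT, was 2.65 ± 0.78 (adjusted p = 0.283, and 0.00321 with the block) for Cpt1b, 0.81 ± 0.27 (adjusted p = 0.388, and 0.00127 with the block) for Acaa2, 0.55 ± 0.14 (adjusted p = 0.166, and 0.0217 with the block) for Acadvl and 0.44 ± 0.15 (adjusted p = 0.419, and 0.0377 with the block) for Acads. Hadha, at 0.44 ± 0.12 (adjusted p = 0.237, and 0.0576 with the block), and Cpt2, at 0.44 ± 0.23 (adjusted p = 0.999, and 0.0929 with the block), did not pass either way. In iWAT under rosiglitazone, where 4.13% of all genes were called, limma called no member and 1 had an unadjusted p under 0.05. With the block Acaa2 was called, at 0.48 ± 0.27 (adjusted p = 0.770, and 0.00821 with the block), and 9.36% of all genes. The median difference of the 10 in iWAT was 0.12, with Hadha at 0.35 ± 0.12 (adjusted p = 0.240, and 0.0751 with the block) and Cpt1b at 0.88 ± 0.78 (adjusted p = 1, and 0.218 with the block). Lymphocyte markers moved in this comparison: 4 of 7 were lower in K107R, and they summed to 34.4 and 32.9 FPKM in K107R rosiglitazone and 297 and 229 FPKM in WT rosiglitazone. Their part in these differences was not tested.

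Under vehicle few genotype differences in these genes passed the test. In vehicle eWAT limma called no member and 3.35% of all genes, with no member at an unadjusted p under 0.05 and a median difference of -0.01. The median over all genes was -0.13 there, and scaling the libraries moved it to 0.01 and the members' median to 0.15, with the differences of Acadl, Acadvl and Cpt1a turning from below to above 0. With the block Acaa2 was called, at 0.56 ± 0.27 (adjusted p = 0.647, and 0.00396 with the block), and 8.3% of all genes. In vehicle iWAT none was called with or without the block, against 0.578% of all genes without it, the median difference was -0.15, and Acadvl alone had an unadjusted p under 0.05, at -0.41 ± 0.14 (adjusted p = 0.593, and 0.1003 with the block). In that setting both K107R libraries lay below both WT libraries for 4 members, Acadm, Acads, Acadvl and Hadha, as for 10.4% of all genes. They lay above for 0 members, as for 5.44% of all genes. Acaa2 and Cpt1b were the members for which K107R exceeded WT within both replicate numbers in all 4 settings. The share of all genes with that pattern was not computed. For Acaa2 the K107R to WT ratios of FPKM in libraries 1 and 2 were 1.82 and 1.70 in rosiglitazone eWAT, 1.504 and 1.454 in vehicle eWAT, 1.40 and 1.39 in rosiglitazone iWAT, and 1.31 and 1.22 in vehicle iWAT. In vehicle iWAT its difference was 0.33 ± 0.27 (adjusted p = 1, and 0.124 with the block).

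**Figure D3:**
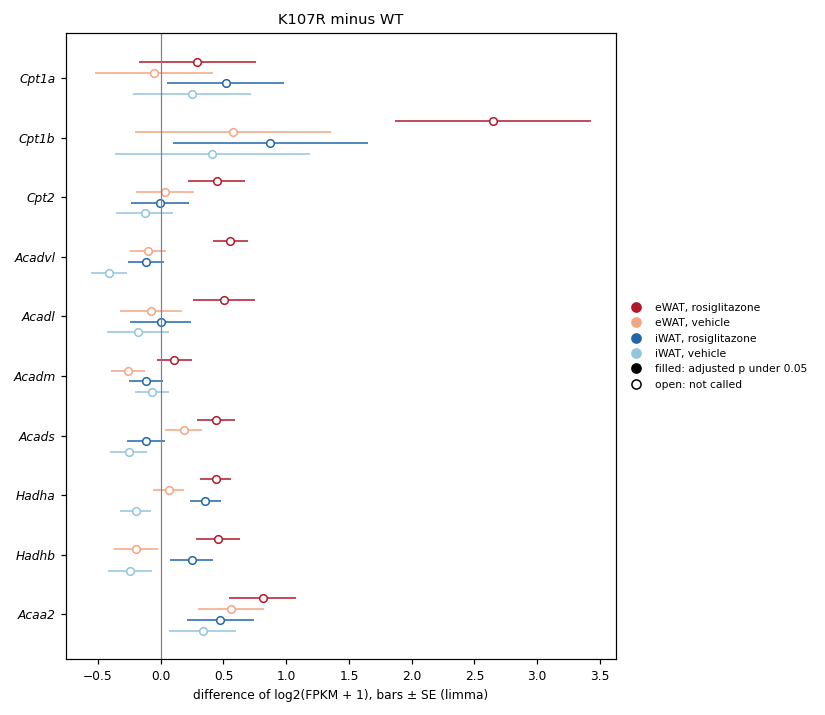
Difference of log2(FPKM + 1), K107R minus WT, for the 10 genes (rows) with bars of 1 SE either side, in eWAT with rosiglitazone, eWAT with vehicle, iWAT with rosiglitazone and iWAT with vehicle from top to bottom within a row. No point passed an adjusted p under 0.05 without the block, and Cpt1b in eWAT with rosiglitazone lies farthest from 0, at 2.65.

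Whether K107R altered the response to rosiglitazone was tested by the interaction, the rosiglitazone change in K107R minus that in WT. In eWAT it was above 0 for all 10 members with a median of 0.39, and 2 had an unadjusted p under 0.05. limma called none of the 10. Of all genes it called 2.53%, with 0.234% above 0 and 2.3% below 0. The K107R vehicle libraries with epididymis markers enter this interaction, and their part was not tested. With the block Acadvl was called, at 0.66 ± 0.20 (adjusted p = 0.229, and 0.0417 with the block), and 4.2% of all genes. Hadhb had 0.65 ± 0.25 (adjusted p = 0.520, and 0.115 with the block) and Cpt1b 2.07 ± 1.10 (adjusted p = 0.995, and 0.0554 with the block). The median over all genes was 0.15 here, and scaling the libraries moved it to -0.02 and the members' median to 0.19. In iWAT no member was called with or without the block. Without it 0.966% of all genes were called, 0.0805% above 0 and 0.885% below 0. There 1 member had an unadjusted p under 0.05, and the median was 0.22, with Hadha at 0.55 ± 0.17 (adjusted p = 0.411, and 0.130 with the block). Without the block, 6 members were thus called for rosiglitazone in K107R eWAT and 0 in WT eWAT with no called difference between the responses, and with it 9 and 5 with that of Acadvl called. After scaling the difference of Acadvl was 0.45 (adjusted p = 0.997).

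Over all groups eWAT held less of most of these transcripts than iWAT. In the mean over the 4 pairs of groups, 6 members were lower in eWAT, Acadl, Acadm, Acads, Acadvl, Hadhb and Cpt2, in a comparison in which 12.5% of all genes were called lower. Cpt1a was higher in eWAT, as were 19.9% of all genes. With the block 8 members were lower, adding Acaa2 and Cpt1b, and 21.0% of all genes, and Cpt1a remained the 1 member higher, with 34.8% of all genes. Acadm differed most, with a lowest, median and highest value of 172, 271 and 351 FPKM over the 8 eWAT libraries and of 320, 477 and 699 FPKM over the 8 iWAT libraries, a difference of -0.83 ± 0.07 (adjusted p = 6.30e-06). The difference was -0.67 ± 0.07 (adjusted p = 5.68e-05) for Acads, -0.65 ± 0.11 (adjusted p = 0.00139) for Cpt2, -0.59 ± 0.07 (adjusted p = 9.36e-05) for Acadvl and -0.56 ± 0.12 (adjusted p = 0.00501) for Acadl. Smaller ones were -0.27 ± 0.09 (adjusted p = 0.0378) for Hadhb and -0.08 ± 0.06 (adjusted p = 0.404) for Hadha, which did not pass. The difference was -0.38 ± 0.13 (adjusted p = 0.0540, and 5.99e-05 with the block) for Acaa2 and -0.49 ± 0.39 (adjusted p = 0.405, and 0.0419 with the block) for Cpt1b. Cpt1a ran from 43.8 to 92.02 FPKM in eWAT with a median of 71.6 FPKM, and from 27.5 to 74.6 FPKM in iWAT with a median of 43.6 FPKM, a difference of 0.68 ± 0.23 (adjusted p = 0.0499). The calls of Hadhb and Cpt1a were lost without 1 library in most cases, with adjusted p up to 0.0867 for Hadhb and 0.116 for Cpt1a, and Cpt1a missed the threshold at a pseudocount of 0.1, with an adjusted p of 0.0508. The members' median difference was -0.53, beside 0.10 over all genes, and scaling the libraries moved these to -0.64 and -0.0027 and ended none of the 7 calls.

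Marker genes of other cell types differed in the same comparison. Of the 7 fat cell markers 6 were lower in eWAT, and their sum ran from 5403 to 9351 FPKM over eWAT libraries and from 8561 to 15500 FPKM over iWAT libraries. The 6 macrophage markers were all higher in eWAT, with sums of 3488 to 4743 FPKM in eWAT and 875 to 1354 FPKM in iWAT. Of 7 brown and beige fat markers 5 were lower in eWAT, of 10 skeletal muscle markers 7 were lower and 1 higher, and of 7 lymphocyte markers 5 were lower. The 5 epididymis markers were higher, through the K107R vehicle libraries. The part of these lists in the depot differences was not tested.

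The rosiglitazone response itself was compared between depots, eWAT minus iWAT. In WT the difference had a median of -0.42 and no member was called by limma, with or without the block, against 0.0366% of all genes without it. An unadjusted p under 0.05 was reached by 3 members, all smaller in eWAT. In K107R the median was -0.09, no member was called against 2.91% of all genes, scaling the libraries moved the median to -0.26 (over all genes from 0.14 to -0.0036), and 1 had an unadjusted p under 0.05. With the block Hadha was called, at -0.65 ± 0.17 (adjusted p = 0.119, and 0.0346 with the block), and 5.27% of all genes.

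Ratios of 2 members within a library do not move with the scaling of that library. Cpt1b over Cpt1a was 0.362 and 0.340 in eWAT K107R rosiglitazone, 0.0661 and 0.0488 in eWAT WT rosiglitazone, 0.112 and 0.0626 in eWAT K107R vehicle, and 0.0605 and 0.0400 in eWAT WT vehicle. The K107R rosiglitazone pair was apart from the other 6. In iWAT the ratio was 0.661 and 0.316 in K107R rosiglitazone, 0.441 and 0.274 in WT rosiglitazone, 0.173 and 0.120 in K107R vehicle, and 0.149 and 0.101 in WT vehicle. Treated iWAT libraries of both genotypes lay above all 4 vehicle libraries there, while the genotypes overlapped.

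**Figure D4:**
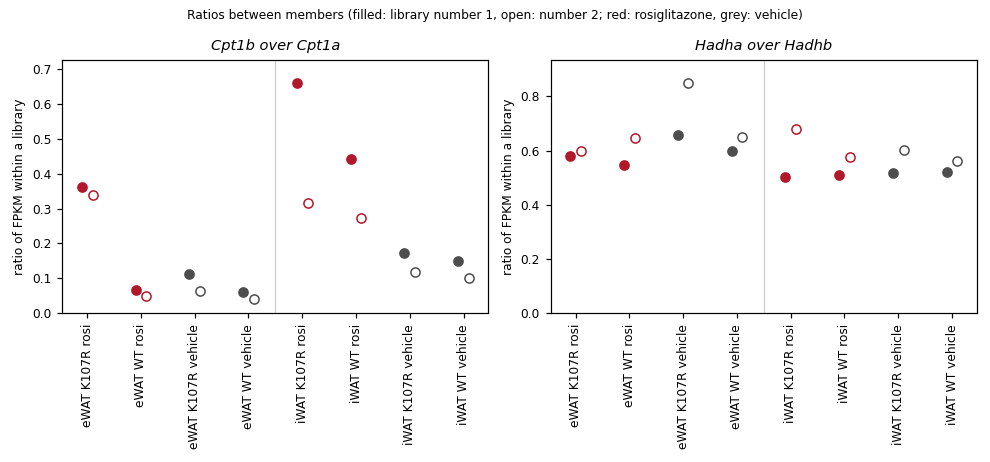
Ratio of FPKM within each library (linear axes from 0) for Cpt1b over Cpt1a on the left and Hadha over Hadhb on the right, filled points for library number 1, open for number 2, red for rosiglitazone and grey for vehicle. In eWAT the Cpt1b ratio of the K107R rosiglitazone libraries, 0.362 and 0.340, stands above the other 6, while Hadha over Hadhb stays between 0.503 and 0.851 in all 16 libraries.

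Hadha over Hadhb ran from 0.503 to 0.851 over the 16 libraries with a median of 0.590, and the number 2 library had the higher ratio in each group. Acadm made up 36.6% to 49.97% of the summed FPKM of the 4 dehydrogenases, Acadl 22.7% to 34.2%, Acads 11.98% to 17.3% and Acadvl 10.8% to 16.6%. The share of Acadvl was 15.4% and 16.6% in eWAT K107R rosiglitazone, above the 12.9% to 14.3% of the other eWAT libraries. Cpt2 over the sum of Cpt1a and Cpt1b was 0.651 to 0.873 in eWAT and 1.08 to 2.91 in iWAT, with no overlap between depots.

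The summed level of fat cell markers was higher with rosiglitazone in each genotype and depot, as was that of the oxidation genes, but not every marker went that way. The sum of the 7 was 9023 and 9351 FPKM in eWAT K107R rosiglitazone, 6730 and 7264 FPKM in WT rosiglitazone, 6281 and 6524 FPKM in K107R vehicle, and 5403 and 5523 FPKM in WT vehicle. In iWAT it was 15110 and 15500 FPKM in K107R rosiglitazone, 11730 and 12840 FPKM in WT rosiglitazone, 9696 and 9320 FPKM in K107R vehicle, and 8719 and 8561 FPKM in WT vehicle. The list includes Adipoq, Plin1 and Cidec, which PPARg is itself known to drive, and 1 of the 7 was called higher with rosiglitazone in K107R eWAT, 0 in WT eWAT, 3 in K107R iWAT and 1 in WT iWAT, or 3, 1, 3 and 2 with the block. In WT eWAT unadjusted p was under 0.05 for 3 of them. Plin1, which coats the lipid droplet, was at 662 and 819.6 FPKM in eWAT K107R rosiglitazone and 523 and 953 FPKM in K107R vehicle. Lep, the leptin gene, had a negative change in all 4 comparisons, with -0.17 ± 0.41 (adjusted p = 0.876) in K107R eWAT, -0.55 ± 0.41 (adjusted p = 1) in WT eWAT, -0.51 ± 0.41 (adjusted p = 0.911) in K107R iWAT and -0.55 ± 0.41 (adjusted p = 1) in WT iWAT, and none passed.

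Set against that sum, the 10 members together came to 0.213 and 0.211 in eWAT K107R rosiglitazone, 0.204 and 0.205 in WT rosiglitazone, 0.161 and 0.152 in K107R vehicle, and 0.178 and 0.188 in WT vehicle. In iWAT the ratios were 0.181 and 0.167 in K107R rosiglitazone, 0.208 and 0.197 in WT rosiglitazone, 0.136 and 0.123 in K107R vehicle, and 0.155 and 0.150 in WT vehicle. On this ratio the treated libraries stayed above the vehicle libraries of their genotype in both depots, the K107R and WT rosiglitazone libraries of eWAT differed by less than the vehicle pairs did, and K107R was below WT in iWAT under both treatments. The part of fat cell content in the changes was not tested beyond this ratio.

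Markers of brown and beige fat, cells rich in mitochondria, moved with Cpt1b in eWAT. Of the 7 listed, 5 were called higher with rosiglitazone in K107R eWAT, 0 in WT eWAT, 2 in K107R iWAT and 2 in WT iWAT, and 4 were higher in K107R than in WT under rosiglitazone in eWAT. The rosiglitazone counts were 5, 2, 4 and 4 with the block and 3, 1, 1 and 1 after scaling. In WT eWAT unadjusted p was under 0.05 for 3 of them. Their sum was 179 and 190 FPKM in eWAT K107R rosiglitazone, 63.9 and 66.4 FPKM in WT rosiglitazone, 54.0 and 57.9 FPKM in K107R vehicle, and 45.5 and 48.6 FPKM in WT vehicle. Ucp1, the uncoupling protein of brown fat, was at 19.0 and 20.2 FPKM in eWAT K107R rosiglitazone and 3.46 and 2.54 FPKM in WT rosiglitazone, a difference of 2.37 ± 0.45 (adjusted p = 0.0421). In iWAT the order of the genotypes in the sum was the other way: it was 240 and 235 FPKM in K107R rosiglitazone, 288 and 344 FPKM in WT rosiglitazone, 118 and 126 FPKM in K107R vehicle, and 164 and 166 FPKM in WT vehicle. Single markers were mixed there. At an unadjusted p under 0.05, 1 was higher and 2 lower in K107R under rosiglitazone, and 1 higher and 3 lower under vehicle. Elovl3 was at 65.3 and 42.8 FPKM in iWAT K107R rosiglitazone and 11.2 and 8.74 FPKM in iWAT WT rosiglitazone. The part of such cells in the Cpt1b values was not tested.

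Markers of skeletal muscle, where Cpt1b is also abundant, were lower with rosiglitazone in K107R fat and higher in K107R than in WT iWAT. The 10 muscle markers summed to 10.2 and 10.9 FPKM in eWAT K107R rosiglitazone, 11.7 and 14.6 FPKM in WT rosiglitazone, 28.1 and 31.7 FPKM in K107R vehicle, and 18.4 and 21.5 FPKM in WT vehicle. With rosiglitazone 6 of the 10 fell in K107R eWAT and 7 in K107R iWAT, where the sum was 33.1 and 42.8 FPKM in K107R rosiglitazone and 117 and 122 FPKM in K107R vehicle. With the block 9 fell in each. In WT iWAT the sum was 14.3 and 17.4 FPKM with rosiglitazone and 27.8 and 30.2 FPKM with vehicle. In iWAT 5 of the 10 were higher in K107R than in WT under rosiglitazone and 8 under vehicle, comparisons in which the mean of Cpt1b was also higher in K107R. In vehicle eWAT 4 were higher in K107R. Their part in the Cpt1b values was not tested. In K107R eWAT with rosiglitazone Ckm, the muscle creatine kinase, was at 0.0911 and 0.0216 FPKM.

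The other genes of the pathway were counted list by list. Of 17 further genes of mitochondrial beta-oxidation 3 rose with rosiglitazone in K107R eWAT, 0 in WT eWAT, 5 in K107R iWAT and 2 in WT iWAT, and none fell. With the block these counts were 9, 0, 11 and 7. Their median log2 change was 0.66, 0.32, 0.72 and 0.59 in that order of groups, below the members' own. Unadjusted p was under 0.05 for 2 of them in WT eWAT. Eci1, an isomerase for unsaturated chains, was at 129.7 and 134 FPKM in eWAT K107R rosiglitazone, 75.2 and 76.2 FPKM in WT rosiglitazone, 74.1 and 71.8 FPKM in K107R vehicle and 57.2 and 59.6 FPKM in WT vehicle. It rose by 0.84 ± 0.11 (adjusted p = 0.00102) in K107R eWAT, 1.14 ± 0.11 (adjusted p = 0.000434) in K107R iWAT and 0.65 ± 0.11 (adjusted p = 0.0196) in WT iWAT, and it was higher in K107R than in WT under rosiglitazone, by 0.79 ± 0.11 (adjusted p = 0.00987) in eWAT and 0.54 ± 0.11 (adjusted p = 0.0237) in iWAT. Etfdh, which passes electrons from the dehydrogenases to the respiratory chain, rose by 0.88 ± 0.14 (adjusted p = 0.00376) in K107R eWAT, 1.02 ± 0.14 (adjusted p = 0.00300) in K107R iWAT and 0.81 ± 0.14 (adjusted p = 0.0206) in WT iWAT. Eci2, a second isomerase gene, rose by 0.66 ± 0.15 (adjusted p = 0.0298) in K107R eWAT and 0.91 ± 0.15 (adjusted p = 0.00685) in K107R iWAT, and Acad11, another dehydrogenase gene, by 1.23 ± 0.28 (adjusted p = 0.0368) in K107R iWAT. After scaling the calls of Eci1 and Acad11 for rosiglitazone in K107R iWAT held, and the other calls of these 4 genes, those of Eci1 between genotypes included, were lost, with adjusted p between 0.0651 and 0.888.

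Among 8 genes of the malonyl-CoA control of carnitine palmitoyltransferase 1, Acacb was the 1 gene called with rosiglitazone without the block, and with it 2 were called higher in K107R eWAT, 1 in WT eWAT, 4 in K107R iWAT and 4 in WT iWAT. Acacb encodes the acetyl-CoA carboxylase at the outer mitochondrial membrane, whose product inhibits that enzyme. It was at 22.6 and 21.0 FPKM in eWAT K107R rosiglitazone, 11.6 and 11.8 FPKM in WT rosiglitazone, 9.03 and 8.53 FPKM in K107R vehicle and 6.27 and 5.99 FPKM in WT vehicle. The 4 groups did not overlap. With rosiglitazone Acacb rose by 1.22 ± 0.12 (adjusted p = 0.000112) in K107R eWAT, 0.84 ± 0.12 (adjusted p = 0.0285) in WT eWAT, 1.27 ± 0.12 (adjusted p = 0.000398) in K107R iWAT and 1.29 ± 0.12 (adjusted p = 0.00113) in WT iWAT, and it was higher in K107R than in WT under rosiglitazone in eWAT, by 0.84 ± 0.12 (adjusted p = 0.0115). Scaling ended the calls in WT eWAT (adjusted p = 0.260) and between genotypes (adjusted p = 0.214), and the other 3 held. Mlycd, whose enzyme degrades malonyl-CoA, was called in no rosiglitazone comparison without the block and in iWAT of both genotypes with it, at 0.89 ± 0.46 (adjusted p = 0.530, and 0.0115 with the block) in K107R and 0.84 ± 0.46 (adjusted p = 0.7998, and 0.0259 with the block) in WT.

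Peroxisomes oxidise very long and branched chains. Of 10 such genes 4 rose with rosiglitazone in K107R eWAT, 0 in WT eWAT, 4 in K107R iWAT and 3 in WT iWAT, or 6, 2, 5 and 4 with the block. Unadjusted p was under 0.05 for 3 in WT eWAT. Ehhadh, the peroxisomal bifunctional enzyme, was at 81.7 and 84.3 FPKM in eWAT K107R rosiglitazone, 21.0 and 17.7 FPKM in WT rosiglitazone, 18.8 and 13.5 FPKM in K107R vehicle and 10.3 and 8.59 FPKM in WT vehicle. It rose by 2.31 ± 0.27 (adjusted p = 0.000388) in K107R eWAT, 2.50 ± 0.27 (adjusted p = 0.000719) in K107R iWAT and 1.62 ± 0.27 (adjusted p = 0.0179) in WT iWAT. Under rosiglitazone it was higher in K107R than in WT by 2.05 ± 0.27 (adjusted p = 0.00689) in eWAT and 1.60 ± 0.27 (adjusted p = 0.00740) in iWAT, and its interaction in eWAT was 1.35 ± 0.39 (adjusted p = 0.185, and 0.00399 with the block). Acaa1b, a peroxisomal thiolase gene with a close paralog that could share its reads, rose by 1.27 ± 0.28 (adjusted p = 0.0263) in K107R eWAT, 2.05 ± 0.28 (adjusted p = 0.00262) in K107R iWAT and 1.87 ± 0.28 (adjusted p = 0.00999) in WT iWAT, and its change in WT eWAT was 1.08 ± 0.28 (adjusted p = 0.227, and 0.00153 with the block). Scaling ended no call of Ehhadh named here and all 3 of Acaa1b, with adjusted p between 0.0595 and 0.491.

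Of 15 other mitochondrial genes, of the citrate cycle, the respiratory chain and ATP synthase, 2 rose in K107R eWAT, 0 in WT eWAT, 4 in K107R iWAT and 0 in WT iWAT, or 7, 0, 10 and 8 with the block. Unadjusted p was under 0.05 for 0 of them in WT eWAT and for 6 in WT iWAT. Their median log2 change was 0.66 in K107R eWAT, 0.27 in WT eWAT, 0.74 in K107R iWAT and 0.59 in WT iWAT, and no gene of the list was called lower. Cyc1, cytochrome c1, rose by 0.75 ± 0.17 (adjusted p = 0.0292) in K107R eWAT and 1.04 ± 0.17 (adjusted p = 0.00685) in K107R iWAT, with 0.78 ± 0.17 (adjusted p = 0.0555, and 0.00170 with the block) in WT iWAT. After scaling its adjusted p was 0.844 in K107R eWAT and 0.285 in K107R iWAT.

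In the list of fatty acid entry and activation, Fabp3, the heart-type fatty acid binding protein, was at 37.9 and 43.5 FPKM in eWAT K107R rosiglitazone, 6.77 and 7.68 FPKM in WT rosiglitazone, 9.63 and 12.9 FPKM in K107R vehicle and 4.91 and 6.85 FPKM in WT vehicle. It rose with rosiglitazone by 1.78 ± 0.23 (adjusted p = 0.000802) in K107R eWAT and 2.44 ± 0.23 (adjusted p = 0.000383) in K107R iWAT, and its change was 0.85 ± 0.23 (adjusted p = 0.137, and 0.00585 with the block) in WT iWAT. The interaction in eWAT, 1.51 ± 0.33 (adjusted p = 0.0410), was called. Scaling ended that call, at 1.30 (adjusted p = 0.793), and the one in K107R eWAT, at 1.55 (adjusted p = 0.0868). Fabp4, the abundant fatty acid binding protein of fat cells, is listed at 0 in eWAT K107R rosiglitazone and in all 8 iWAT libraries and between 14170 and 23050 FPKM in the other 6 eWAT libraries, so it is given no change and its calls are left out. No other gene of this list of 8 was called in a rosiglitazone comparison without the block, and with it 3 were called higher in K107R eWAT, 1 in WT eWAT, 4 in K107R iWAT and 3 in WT iWAT, Fabp3 included in all but WT eWAT.

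Of 8 receptors and cofactors that act on these genes, Ppara, the PPAR form that drives oxidation in liver, rose in K107R eWAT by 0.71 ± 0.16 (adjusted p = 0.0273), to 1.93 and 1.99 FPKM in rosiglitazone against 0.943 and 0.687 FPKM in vehicle. Nrip1, a corepressor of oxidation genes, was called lower in K107R iWAT, with a change of -0.72 ± 0.17 (adjusted p = 0.0444), and after scaling its adjusted p was 0.0627. With the block 1 of the 8 was called higher in K107R eWAT, 1 higher and 1 lower in K107R iWAT, and 1 lower in WT iWAT. Pparg itself was at 97.3 and 78.6 FPKM in eWAT K107R rosiglitazone, 89.8 and 64.3 FPKM in WT rosiglitazone, 84.0 and 55.5 FPKM in K107R vehicle and 89.4 and 73.4 FPKM in WT vehicle, with all groups overlapping in part, and a substituted residue leaves no mark on such a value.

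The 10 members shared 1 profile over the 8 group means with a single exception. Pearson's r to the mean standardised profile of the 10 was between 0.875 and 0.978 for 9 of them and 0.059 for Cpt1a, where each member is itself part of that mean and the points share their libraries. Among 6447 other genes with a mean of at least 10 FPKM, those most like the profile over the 8 group means were Aco1, at r = 0.997, Ndufb6 at 0.994, Scarb1 and Bhlhb9 at 0.991, Cox7a2 at 0.990, Retsat at 0.989, and Tbc1d20 and Tmem143 at 0.988. Aco1 encodes the cytosolic aconitase, Ndufb6 and Cox7a2 encode respiratory chain subunits, Scarb1 a lipoprotein receptor and Retsat a retinol saturase.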

How the data were processed

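RNA of 16 libraries of mouse fat, 8 groups of 2 taken from the sample titles, was sequenced, per the labels' protocols, in 75-nt single reads of stranded mRNA libraries (4 ug of total RNA each). FPKM were computed by the authors and deposited for 14023 genes; the submitters' processing notes name CASAVA 1.8.2, TopHat2 2.0.12, Cufflinks 2.2.1 and mm10. The annotation, strand setting and scaling are not given in the sources used here. Without counts the sequencing depth is unknown, and counting intervals could not be given. Gene symbols are the files' own. Coordinates are from GENCODE vM21 on GRCm38, the assembly of mm10, and promoter sequences from RefSeq on GRCm38.p6.

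The 13669 genes that reached 1 FPKM in 2 or more libraries were fitted with limma 3.58.1 in R 4.3.3 on log2(FPKM + 1), with 1 mean per group over all 16 libraries, a mean-variance trend and Benjamini-Hochberg adjustment over all genes within each of 13 contrasts. The fit was tested on simulated data. Group errors are SD or the fit's SE. Replicate numbers come from the labels, and their meaning is not given there. Libraries with the same number deviated together from their group means in 28 of 28 pairs of groups (r from 0.12 to 0.79), so the number pairs the libraries and the fit with it as a block is given where it alters a call of the 10 genes or a list's count. Alternatives were a pseudocount of 0.1, no filter, scaling by median ratio, each depot alone, leaving out the eWAT K107R vehicle libraries, and leaving out each library.

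The genes named are the 10 members, up to 4 called genes with the largest change per list and contrast or else the one with the smallest p, and the 8 genes most like the members' profile; Chkb, Mlycd, Pparg, Ckm and Ucp1 were added for context. The members and lists were chosen with earlier results of these data known. Dio2, Bdh1 and Garem2 of the lists were not analysed here, and neither were Lcn8, Lcn9, Hba-a2 and Hbb-bt.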

Additional observations from a re-analysis of the deposited data

How the results depend on the processing

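No alternative reversed a called direction. With the replicate number as a block, which pairs the libraries, members called were 5 for rosiglitazone in WT eWAT and 8 in WT iWAT, 4 for K107R against WT in rosiglitazone eWAT, and 1 each in vehicle eWAT, in rosiglitazone iWAT, for the interaction in eWAT and for the depot difference of the response in K107R; the block moved no other count of called members by over 1.5 times. Scaling by median ratio, run without the block, gave 2 called in WT iWAT, Hadhb of the 5 and Acadl, and 4 each in K107R eWAT and K107R iWAT, of which 2 and 3 were among the 6. Each depot alone left 0 called in WT iWAT, where limma gave 8 at an unadjusted p under 0.05 over all libraries, and 1 in K107R iWAT; the fit then has fewer libraries. Leaving out 1 library at a time gave 3 to 5 members in K107R eWAT, 1 to 2 in WT iWAT, 4 to 6 in K107R iWAT and 5 to 7 for eWAT against iWAT, and 0 in the other 9 comparisons (3 in K107R eWAT without library 1 of K107R vehicle, and 1 or 2 in WT iWAT without any of its 4 libraries, against 6 and 5 over all libraries); the library left alone in its group is then assumed to vary like the rest. Of 308 single-gene values under these omissions 51 lost the call and 4 gained one. No filter changed no call, and leaving out both eWAT K107R vehicle libraries changed none of 27 values that can be had without them. With 2 libraries a group and unknown depth, small differences in Cpt1b and Cpt1a, whose libraries differ widely by number, could not be resolved.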
